A study of Homo sapiens with 24 samples.

Results

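The 10 genes described here act in cytokinesis, the final step of cell division in which a cell cleaves into daughters: ANLN, ECT2, RACGAP1, PRC1, CEP55, CIT, RHOA, CHMP4B, PDCD6IP and TSG101. They are a list of names, and all 10 were found by symbol among the 48162 genes of the count table. RNA-seq was made of PPC1, a human prostate cancer cell line, in 4 conditions with 6 libraries each, 24 libraries in all. UT were parental cells, grown without radiation and harvested on day 5. UT_LCL were parental cells exposed to 5 µM LCL-521, an inhibitor of acid ceramidase, for 5 hours before harvest on day 5. PGCC were polyploid giant cancer cells from plates irradiated with 8 Gy on day 2, which were trypsinized on day 5 and captured on a 20 micron filter. PGCC_LCL were irradiated and filtered in the same way and had 5 hours of LCL-521 (5 µM) before harvest. Days are counted from plating on day 1.

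The model has limits that bear on every value below. All libraries come from 1 cell line, and only the irradiated cells were filtered, so radiation and selection by size cannot be told apart. In bulk RNA a change in the share of cells that express a gene cannot be told apart from a change in RNA per cell. Levels here are shares of the reads of a library, so they do not give the amount of RNA per cell. Of 5 epithelial markers, the keratin genes KRT8, KRT18 and KRT19 had means of 70.3 ± 12.8, 233 ± 35 and 612 ± 84 CPM in UT (read counts scaled to a standard library size; SD, n = 6) and of 178 ± 32, 169 ± 15 and 820 ± 188 CPM in PGCC, where KRT8 and KRT19 rose and KRT18 fell (edgeR). The adhesion genes were low: CDH1 had 3.07 ± 1.47 CPM in UT and 1.99 ± 0.50 CPM in PGCC and was not called, and EPCAM was near 0, at 0.204 ± 0.127 and 0.449 ± 0.253 CPM.

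During division the central spindle forms between the separating chromosomes, bundled by PRC1 and by centralspindlin, of which RACGAP1 is a subunit. Centralspindlin brings ECT2, the exchange factor that loads the GTPase RHOA with GTP, to the cell equator, and RHOA drives assembly of the actomyosin ring, to which the scaffold protein anillin (ANLN) binds. The closing furrow leaves a midbody bridge organised by citron kinase (CIT) and CEP55. CEP55 recruits ALIX (encoded by PDCD6IP) and the ESCRT-I subunit TSG101, and these bring in the ESCRT-III subunit CHMP4B, whose filaments take part in cutting the bridge. A cell that fails at any of these steps can keep the chromosomes meant for both daughters, so the transcripts are of interest in giant polyploid cells.

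The promoters of members whose transcripts were over 2-fold higher in PGCC are shown first, because these members rose in the same comparison. Sequences are from RefSeq (GRCh38.p14), each a window of 250 bases before to 50 bases after an annotated start, and 9 of the 10 members were matched. RACGAP1 was not. Windows were searched on both strands for TTTGAA and TTCGAA (letters of the cell cycle genes homology region, an element known from genes expressed late in the cell cycle), for CCAAT, and for TTGGCGC and TTCCCGC (E2F-like letters). Below, the 120 bases before the start are printed 5′ to 3′ on the gene's strand. Capitals mark TTTGAA or CCAAT on either strand, so TTCAAA and ATTGG are the same letters read on the other strand. The windows lie at chr7:36389742-36389861 (ANLN, plus strand), chr15:90994536-90994655 (PRC1, minus strand), chr3:172750606-172750725 (ECT2, plus strand), chr10:93496492-93496611 (CEP55, plus strand), chr12:119877321-119877440 (CIT, minus strand) and chr3:49411977-49412096 (RHOA, minus strand, shown as a member that did not rise).
ANLN: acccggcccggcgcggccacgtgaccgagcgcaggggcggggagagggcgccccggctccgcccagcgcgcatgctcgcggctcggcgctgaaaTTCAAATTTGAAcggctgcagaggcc
PRC1: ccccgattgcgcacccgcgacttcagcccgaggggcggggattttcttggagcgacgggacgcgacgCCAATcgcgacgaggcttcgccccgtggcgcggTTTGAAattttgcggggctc
ECT2: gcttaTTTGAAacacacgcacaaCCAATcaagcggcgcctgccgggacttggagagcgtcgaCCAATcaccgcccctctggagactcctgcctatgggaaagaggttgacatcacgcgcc
CEP55: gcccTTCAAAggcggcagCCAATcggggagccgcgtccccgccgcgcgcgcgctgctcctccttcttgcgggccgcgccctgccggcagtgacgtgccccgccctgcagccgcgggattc
CIT: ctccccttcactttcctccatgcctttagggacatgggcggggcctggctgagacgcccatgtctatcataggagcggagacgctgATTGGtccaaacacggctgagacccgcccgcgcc
RHOA: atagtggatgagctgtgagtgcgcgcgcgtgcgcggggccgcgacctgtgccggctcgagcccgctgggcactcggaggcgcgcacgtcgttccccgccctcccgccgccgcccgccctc

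In CEP55 and CIT a copy of TTTGAA, read on the other strand, also lies across the start (CEP55) or just after it (CIT), which the 30 bases from -14 to 16 show (chr10:93496598-93496627, plus strand, and chr12:119877305-119877334, minus strand).
CEP55 around its start: cagccgcgggaTTCAAActcccggaagcgg
CIT around its start: gacccgcccgcgccgttcctcgggTTCAAA

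TTTGAA was present in the promoters of ANLN, ECT2, PRC1, CEP55 and CIT, which are the 5 members over 2-fold higher in PGCC that had a promoter in the table. It was in 0 of the 4 windows of RHOA, CHMP4B, PDCD6IP and TSG101. Of all 35116 promoters of the same length in the table, 15.2% held it. In ANLN a copy on each strand stood next to the other, at -26 and -20, and in PRC1 a copy stood at -20 with CCAAT at -53. ECT2, the member with 2 listed starts, had copies at -115 and 35 around the start printed above, CCAAT at -97, -58 and -2, and a TTGGCGC match at -5 that overlaps the last CCAAT. CEP55 had TTTGAA at -116 and -3, and CIT at -208 and 11. CCAAT was found in 5 of the 9 members (ECT2, PRC1, CEP55, CIT and RHOA) and in 34.6% of all promoters. TTCGAA was in none of the 9, and TTCCCGC in CEP55 only, beside 1.45% and 6.55% of all promoters. TTGGCGC was found in ECT2 alone of the 9 and in 3.04% of all promoters. These matches are descriptions of letters in a window, and binding was not measured.

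Total counts per library lay between 14835246 and 19906601, so that 3 counts corresponded to between 0.1503 and 0.2077 CPM. Every member had at least 51 counts in every library, and CPM values here are scaled by TMM, a normalisation of library sizes. Replicates 4 and 5 of every condition stood apart from the others on the second principal component, which held 16.5% of the variance, so results that rest on them are given with and without them. Genes typical of blood, endothelium and fibroblasts were checked as well. Of that list 9 of 10 were in the table. Their summed level was 50.5 to 137 CPM in UT, 52.5 to 118 in UT_LCL, 82.6 to 209 in PGCC and 81.7 to 191 in PGCC_LCL. Most of the sum was COL1A2, a collagen gene, at 63.9 ± 32.1 CPM in UT and 113 ± 54 CPM in PGCC (SD, n = 6). HBB had 0 counts in all libraries, CD3E and CD68 had at most 2 counts in any, and PTPRC, a leukocyte gene, had 1.17 ± 1.03 CPM in UT and 3.10 ± 0.61 CPM in PGCC.

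The comparison of PGCC with UT asks which cytokinesis transcripts differ between giant cells and their parental line. Transcripts of the 6 members that act from the central spindle to the midbody were between 3.26 and 8.41 times as abundant in PGCC. RHOA and the ESCRT adaptors PDCD6IP and TSG101 did not pass the test, and the ESCRT-III subunit CHMP4B rose by 1.12-fold. By the quasi-likelihood test of edgeR, adjusted after Benjamini and Hochberg (threshold 0.05, 13812 genes tested), 7 of the 10 members rose and 0 fell. Of all genes tested 47.4% were called, 23.1% higher and 24.3% lower. Calls to the higher side were 48.7% of all calls with TMM and 60.2% with library totals in its place. The median log2 fold change of the members was 1.80 beside -0.03 over all genes tested. The 6 members over 2-fold higher stand beside 11.0% of all genes tested that were over 2-fold higher and called. In those 6 every PGCC library exceeded every UT library, which held in the same direction for 13.9% of all genes tested.

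**Figure D1:**
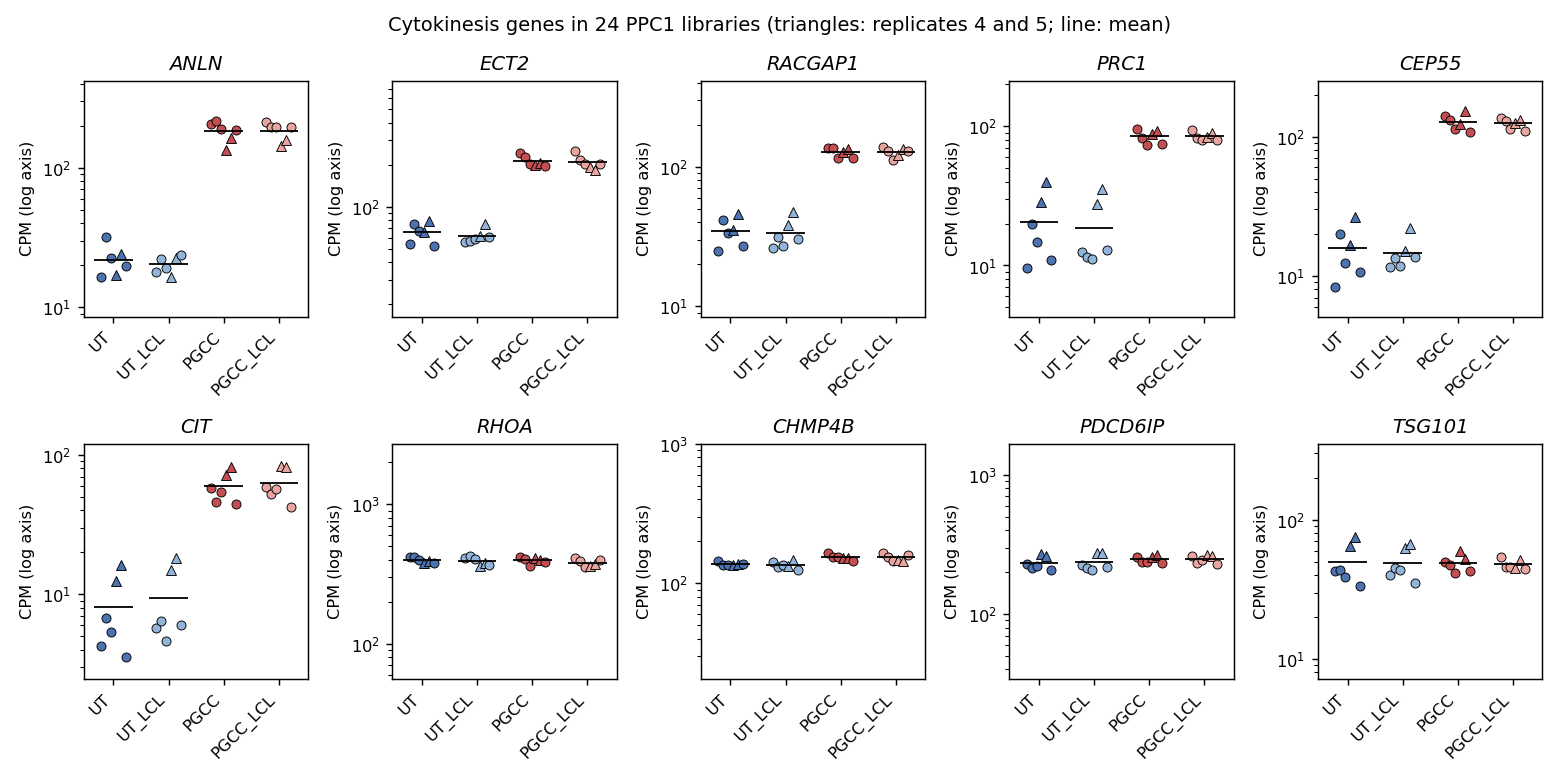
Level of each of the 10 members in all 24 libraries, in CPM on a log axis that spans the same ratio in every panel, with 1 point for each library, triangles for replicates 4 and 5 and a line at the mean of the 6 libraries. The PGCC and PGCC_LCL points of ANLN, ECT2, RACGAP1, PRC1, CEP55 and CIT lie above all UT and UT_LCL points, whereas the 4 conditions overlap in RHOA, PDCD6IP and TSG101.

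ANLN, the anillin scaffold that links RHOA, actin, myosin and septins (chr7:36429415-36493400, plus strand, in the coordinates of the count table, which the submitters' processing notes place on hg19), had a lowest, median and highest level of 16.5, 21.2 and 31.7 CPM in UT and of 135, 189 and 218 CPM in PGCC. The groups were far apart. Its log2 fold change was 3.07 (SE 0.17), an 8.41-fold difference with a 95% interval of 6.52 to 10.9, and its adjusted p by edgeR's quasi-likelihood test was 2.26e-08. In this fit 98.9% of all genes tested had a lower value, and ANLN led the members. CEP55 led with the replicate block (3.11 beside 3.09 for ANLN) and without replicate 5 (3.19 beside 3.14), and without replicates 4 and 5 both CIT (3.36) and CEP55 (3.28) were above ANLN (3.16). ANLN was higher in PGCC in 6 of 6 same-numbered pairs. ANLN is partly overlapped on the opposite strand by KIAA0895, which reached at most 6.15 CPM, and the strand setting of the counting is not given in the sources used here.

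RHOA, the GTPase that starts ring assembly (chr3:49396578-49450431, minus strand), was the most abundant member, at 378, 398 and 422 CPM in UT and 362, 404 and 422 CPM in PGCC (lowest, median and highest). The ranges overlapped over nearly their whole width. Its log2 fold change was 0.01 (SE 0.06; 95% interval -0.12 to 0.13; adjusted p = 0.947 by edgeR's quasi-likelihood test). With TMM scaling this interval runs from 0.920 to 1.10 times the parental level in CPM. With library totals in place of TMM the log2 fold change of RHOA was 0.10 (adjusted p = 0.154, edgeR). TCTA, on the opposite strand within the RHOA locus, reached up to 31.2 CPM. Its paralog RHOC rose, from 117 ± 12 to 153 ± 9 CPM (SD, n = 6; log2 fold change 0.40, SE 0.08, adjusted p = 0.000710 by edgeR), and RHOB did not pass the test, at 43.7 ± 5.3 and 41.2 ± 13.4 CPM.

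ECT2, the exchange factor that activates RHOA (chr3:172468472-172539264, plus strand), had 52.0, 66.5 and 78.9 CPM in UT and 197, 204 and 244 CPM in PGCC (lowest, median and highest). Each PGCC library exceeded each UT library by more than the spread within either condition. This was a log2 fold change of 1.70 (SE 0.11), a 3.26-fold difference with an interval of 2.77 to 3.84 (adjusted p = 7.81e-08, edgeR's quasi-likelihood test). ECT2 was thus the member with the smallest of the 6 large differences.

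RACGAP1, the centralspindlin subunit (chr12:50370706-50426919, minus strand), had 25.1, 34.5 and 46.2 CPM in UT and 117, 131 and 138 CPM in PGCC (lowest, median and highest). The libraries of the conditions did not overlap. RACGAP1 had a log2 fold change of 1.89 (SE 0.14), 3.70-fold with an interval of 3.01 to 4.54 (adjusted p = 2.27e-07, edgeR). KIF23, its motor partner in centralspindlin, a gene singled out after its values were seen, went from 16.2 ± 4.4 to 68.1 ± 7.3 CPM (SD, n = 6).

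PRC1, the bundler of antiparallel microtubules (chr15:91509270-91538859, minus strand), had 9.53, 17.2 and 40.0 CPM in UT and 73.4, 85.2 and 95.1 CPM in PGCC (lowest, median and highest). The parental libraries were spread widely, and their 2 highest values, 28.4 and 40.0 CPM, were those of replicates 4 and 5, where the other 4 lay between 9.53 and 19.8. The fitted log2 fold change of PRC1 was 2.04 (SE 0.30), 4.10-fold with an interval of 2.64 to 6.37 (adjusted p = 7.44e-05, edgeR). Without replicates 4 and 5 it was 2.58 (adjusted p = 2.01e-07).

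CEP55, which recruits the abscission machinery (chr10:95256389-95288849, plus strand), had 8.39, 14.6 and 26.6 CPM in UT and 108, 127 and 153 CPM in PGCC (lowest, median and highest). Its lowest PGCC library was several times its highest parental library. In the fit the log2 fold change was 3.02 (SE 0.24), 8.13-fold with an interval of 5.69 to 11.6 (adjusted p = 4.08e-07, edgeR's quasi-likelihood test).

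CIT, the citron kinase that keeps the midbody in order (chr12:120123595-120315095, minus strand), had the lowest mean CPM of the members in UT and UT_LCL. Scaled to gene length it was lowest in every condition. In PGCC the mean of TSG101 was lower, at 48.8 ± 6.7 CPM beside 59.5 ± 14.8 CPM for CIT (SD, n = 6). The same held in PGCC_LCL, at 47.7 beside 62.7 CPM. CIT had 3.53, 6.07 and 16.3 CPM in UT and 44.5, 56.2 and 81.9 CPM in PGCC (lowest, median and highest). Replicates 4 and 5 were the highest in both conditions, at 12.5 and 16.3 CPM in UT and 72.2 and 81.9 CPM in PGCC. CIT had a log2 fold change of 2.87 (SE 0.34), 7.32-fold with an interval of 4.39 to 12.2 (adjusted p = 1.37e-05, edgeR), and 3.36 without those replicates (adjusted p = 1.49e-08).

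CHMP4B, the ESCRT-III filament subunit (chr20:32399110-32442172, plus strand), had 135, 137 and 146 CPM in UT and 144, 153 and 164 CPM in PGCC (lowest, median and highest). The conditions touched only where the highest UT library, replicate 1, passed the lowest PGCC library, replicate 6. The log2 fold change was 0.16 (SE 0.06; adjusted p = 0.0340, edgeR), a 1.12-fold difference with an interval of 1.03 to 1.22, and the gene was higher in 6 of 6 same-numbered pairs. The adjusted p lay near the threshold, while the log2 fold change stayed between 0.146 and 0.175 with 1 replicate left out. The call was lost when replicate 1, 2, 3, 4 or 5 was left out (adjusted p between 0.0614 and 0.117 by edgeR), without replicates 4 and 5 together (0.0514) and with no filter on low counts (0.239), and was kept without replicate 6 (0.0471). With library totals in place of TMM the log2 fold change of CHMP4B was 0.25.

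PDCD6IP, which encodes the adaptor ALIX (chr3:33839844-33911194, plus strand), had 208, 225 and 270 CPM in UT and 232, 248 and 266 CPM in PGCC (lowest, median and highest), and the ranges overlapped. The log2 fold change was 0.09 (SE 0.08; interval -0.08 to 0.26; adjusted p = 0.356, edgeR). With replicates 4 and 5 left out and the replicate number as a block, it was 0.17 (adjusted p = 0.0148).

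TSG101, the ESCRT-I subunit (chr11:18489883-18548779, minus strand), had 33.3, 43.1 and 75.3 CPM in UT and 41.4, 48.5 and 59.7 CPM in PGCC (lowest, median and highest). The 2 highest parental libraries were again replicates 4 and 5, at 64.6 and 75.3 CPM, and the other 4 were between 33.3 and 43.6. The log2 fold change was -0.02 (SE 0.18; interval -0.41 to 0.37; adjusted p = 0.935, edgeR). Within replicates 4 and 5 the mean difference in log2 CPM was -0.32 and within the other 4 it was 0.20, so the value near 0 averages opposite differences. Without replicates 4 and 5 the fitted difference was 0.21 (adjusted p = 0.0899), and 0.22 with the replicate block (adjusted p = 0.0266).

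The exact permutation test over libraries, two-sided on log2 CPM, gave the smallest p that 6 libraries against 6 allow, 0.00216, for each of the 6 large differences. For CHMP4B it gave 0.00433, for PDCD6IP 0.227, for TSG101 0.905 and for RHOA 0.963. This test does not use the pairing of libraries by number. An exact test over the 64 sign changes of same-numbered pairs gave 0.0312, its smallest possible p, for the 6 large differences and for CHMP4B. The paired test gave 0.0938 for PDCD6IP and 0.875 for TSG101 and RHOA. These exact p-values are not adjusted for the 10 genes tested.

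Compared per length, as CPM per kilobase, the order of the members changed between the conditions. In UT the order was RHOA (196 ± 9), CHMP4B (83.9 ± 2.4), PDCD6IP (37.9 ± 4.2), TSG101 (23.6 ± 7.9), ECT2 (15.02 ± 2.47), RACGAP1 (10.5 ± 2.5), CEP55 (5.98 ± 2.56), PRC1 (5.03 ± 2.88), ANLN (4.58 ± 1.18) and CIT (0.933 ± 0.589 CPM per kilobase; SD, n = 6). From TSG101 down to ANLN each gene's mean ± SD overlapped that of the next. In PGCC RHOA (196 ± 11) and CHMP4B (93.3 ± 3.9) still led, followed by ECT2 (48.8 ± 4.4), CEP55 (48.6 ± 6.3), PDCD6IP (40.3 ± 2.3), RACGAP1 (38.8 ± 2.9), ANLN (38.3 ± 6.2), TSG101 (23.2 ± 3.2), PRC1 (20.6 ± 2.3) and CIT (6.84 ± 1.70 CPM per kilobase). There the run from ECT2 to ANLN overlapped from neighbour to neighbour, as did TSG101 and PRC1. CEP55, below TSG101 in parental cells, was thus level with ECT2 and above TSG101 in giant cells.

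The comparison of PGCC_LCL with UT_LCL repeats the population contrast in 12 other libraries of the same 6 experiments. Again 7 of the 10 members rose and 0 fell (edgeR's quasi-likelihood test, 13818 genes tested), where 48.9% of all genes were called and 25.0% were higher. The log2 fold changes of the 6 large differences were 3.20 for ANLN (SE 0.13), 3.12 for CEP55 (SE 0.15), 2.77 for CIT (SE 0.33), 2.22 for PRC1 (SE 0.28), 1.96 for RACGAP1 (SE 0.14) and 1.79 for ECT2 (SE 0.10). Their adjusted p-values by edgeR ran from 6.45e-10 for ANLN to 1.55e-05 for PRC1, and every PGCC_LCL library exceeded every UT_LCL library in all 6, against 14.4% of all genes tested in that direction.

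CHMP4B was the other member called, at a log2 fold change of 0.21 (SE 0.07; adjusted p = 0.0182, edgeR). It lost the call without replicate 1, 2 or 6 (adjusted p = 0.0603, 0.0683 and 0.118) and with no filter on low counts (0.202). PDCD6IP was at 0.11 (SE 0.09; adjusted p = 0.347), and passed the test without replicates 4 and 5, at 0.20 (adjusted p = 0.0352). TSG101 was at -0.01 (SE 0.15; adjusted p = 0.958) and RHOA at -0.01 (SE 0.07; adjusted p = 0.879). Without replicates 4 and 5 TSG101 was at 0.25 (adjusted p = 0.0532 by edgeR, and 0.0391 with the replicate block).

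**Figure D2:**
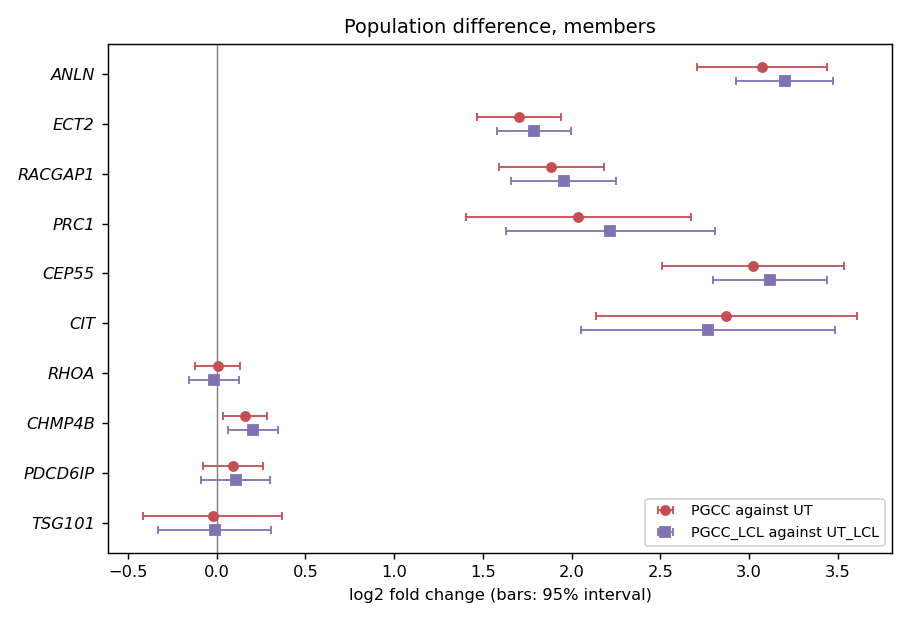
Log2 fold change of each member (horizontal axis) with its 95% interval from edgeR, for PGCC against UT (circles) and PGCC_LCL against UT_LCL (squares), which share no library. ANLN, CEP55 and CIT lie between 2.77 and 3.20, PRC1, RACGAP1 and ECT2 between 1.70 and 2.22, and the other 4 members within 0.21 of 0.

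LCL-521 was given for 5 hours to ask whether inhibition of acid ceramidase changes transcripts within that time. These comparisons share their UT and PGCC libraries with the population contrast above. In parental cells 0 of the 10 members passed edgeR's quasi-likelihood test, as did 0 of 13277 genes (0%; 71, or 0.535%, at an unadjusted p under 0.05). DESeq2 called 0, and a fit blocked on replicate number 115 (0.866%), among them 0 members. Log2 differences of the members ran from -0.15 for PRC1 to 0.20 for CIT, and 0 members were at an unadjusted p under 0.05. Without the replicate block the intervals were widest for PRC1 (-1.01 to 0.71) and CIT (-0.75 to 1.16), and narrow for RHOA (-0.15 to 0.11) and CHMP4B (-0.15 to 0.10). These widths include differences between replicates that both conditions share. In mean log2 CPM, replicates 4 and 5 stood above the others by 1.35 in UT and 1.38 in UT_LCL for PRC1. For CIT the values were 1.54 and 1.53. Differences within same-numbered pairs had an SD of 0.42 for PRC1 and 0.34 for CIT.

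In PGCC 0 of the 10 members passed, where 1 of 14151 genes did (0.00707%; 218, or 1.54%, at an unadjusted p under 0.05). DESeq2 called 6 and the replicate block 234 (1.65%), again with 0 members. The members' log2 differences ran from -0.06 for RHOA to 0.08 for CIT. Without the block, intervals were tighter than in parental cells: for ANLN -0.25 to 0.26, for ECT2 -0.19 to 0.13, for PRC1 -0.14 to 0.16 and for CEP55 -0.21 to 0.14. ANLN had 184 ± 30 CPM in PGCC and 184 ± 27 CPM in PGCC_LCL (SD, n = 6), and CEP55 had 128 ± 17 and 125 ± 11 CPM. None of the members was called in the test of the difference between the LCL-521 effects in the 2 populations, where 0 of 14555 genes passed (60, or 0.412%, at an unadjusted p under 0.05; 0 by DESeq2 and 0 with the replicate block). Without the block, the members' values there ran from -0.12 for CIT (interval -1.12 to 0.88) to 0.16 for PRC1 (-0.69 to 1.02).

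**Figure D3:**
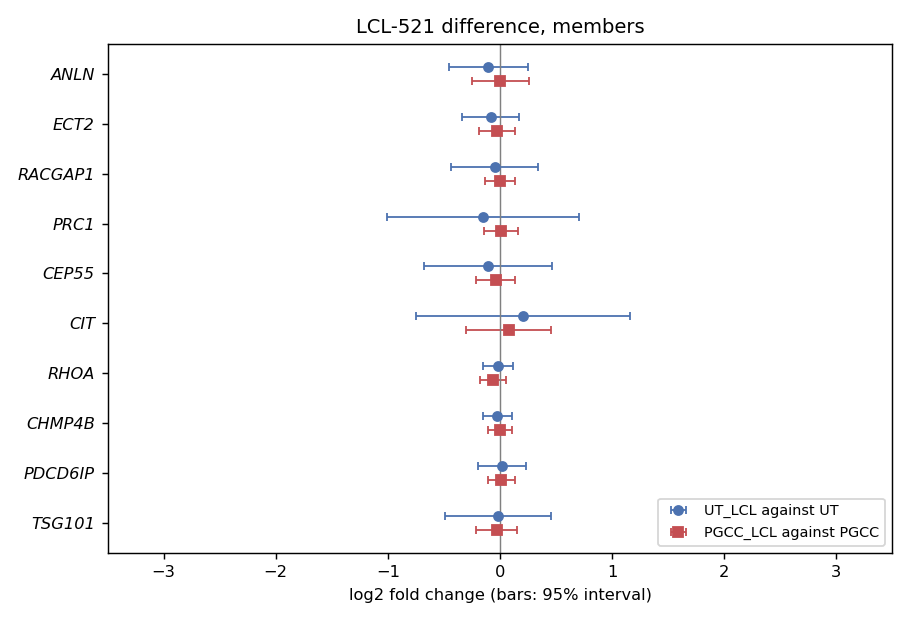
Log2 fold change of each member under LCL-521 with its 95% interval from edgeR without the replicate block, in parental cells (circles) and in PGCC (squares). Every interval covers 0, and those of PRC1 and CIT in parental cells are the widest.

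Other genes of cell division, listed by function, were read beside the members in PGCC against UT. In that comparison 47.4% of all genes tested were called, 23.1% higher and 24.3% lower. In the list of central spindle and chromosomal passenger genes 12 of 12 rose (edgeR), with a median log2 fold change of 2.17. The largest rises were those of KIF20A, the kinesin that brings the passenger complex to the central spindle (3.33, SE 0.35), KIF4A, which limits the length of that structure (2.74, SE 0.28), and AURKB, the kinase of the complex (2.72, SE 0.25). KIF20A went from 10.5 ± 6.1 to 106 ± 13 CPM (SD, n = 6).

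In the list of contractile ring genes and septins, 22 of 23 were tested, of which 7 rose, 3 fell and 12 were not called. The share called, 45.5%, was near the 47.4% of all genes tested, and the median log2 fold change was 0.12. The formin DIAPH3, which nucleates actin filaments, rose most, from 7.67 ± 2.92 to 46.4 ± 2.2 CPM (log2 fold change 2.60, SE 0.20). The septin SEPTIN6 rose by 0.67 (SE 0.10). The nonmuscle myosin MYH10 rose by 1.24 (SE 0.42) from a level of 0.460 ± 0.290 CPM, and its call was lost without replicate 2 (adjusted p = 0.0702 by edgeR) or 4 (0.0527). The falls were of ACTB (-0.53, SE 0.18) and ACTG1 (-0.51, SE 0.15), the cytoplasmic actins, and PFN1, profilin (-0.36, SE 0.11). The call of ACTB was lost without replicate 1, 2, 3 or 6 (adjusted p between 0.0635 and 0.0827) and with library totals in place of TMM (0.0567), and that of PFN1 without replicate 2 (0.0534) and with library totals (0.0555). The number that fell was 1 without replicate 2 and 1 with library totals, and the number that rose was 11 without replicates 4 and 5 and with the replicate block.

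In the ESCRT and abscission list, of 25 genes tested among 26, 4 rose, 10 fell and 11 were not called. The share called was 56%, beside 47.4% of all genes tested, and the median log2 fold change was -0.27. VPS28, which sits with TSG101 in ESCRT-I, fell most, from 115 ± 16 to 36.8 ± 3.9 CPM (log2 fold change -1.63, SE 0.11, adjusted p = 9.61e-08 by edgeR). CHMP2A, an ESCRT-III subunit that works with CHMP4B, fell from 166 ± 17 to 86.9 ± 9.5 CPM (-0.93, SE 0.09), and CHMP6, which starts CHMP4 polymers, from 13.8 ± 2.8 to 7.24 ± 1.05 CPM (-0.93, SE 0.16). The largest rises were of VPS37B, another ESCRT-I subunit (0.65, SE 0.09), ZFYVE19, a regulator of the abscission checkpoint (0.63, SE 0.13), and CHMP2B (0.36, SE 0.10). Without replicates 4 and 5 the number that rose was 8 and the median was -0.14.

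Of the paralogs of CHMP4B, CHMP4C, which delays abscission when chromatin lies in the bridge, fell from 11.7 ± 5.8 to 6.87 ± 1.62 CPM (log2 fold change -0.77, SE 0.28, adjusted p = 0.0354 by edgeR). That call was lost without replicate 5 (-0.48), without replicate 2 (-0.83, adjusted p = 0.0620), with library totals (0.0619), with the replicate block and a correction for gene length (-0.64, adjusted p = 0.0510) and without replicates 4 and 5 (-0.25, adjusted p = 0.142). CHMP4A was below 1 CPM in both conditions and was not called (-0.62, SE 0.34, adjusted p = 0.144).

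**Figure D4:**
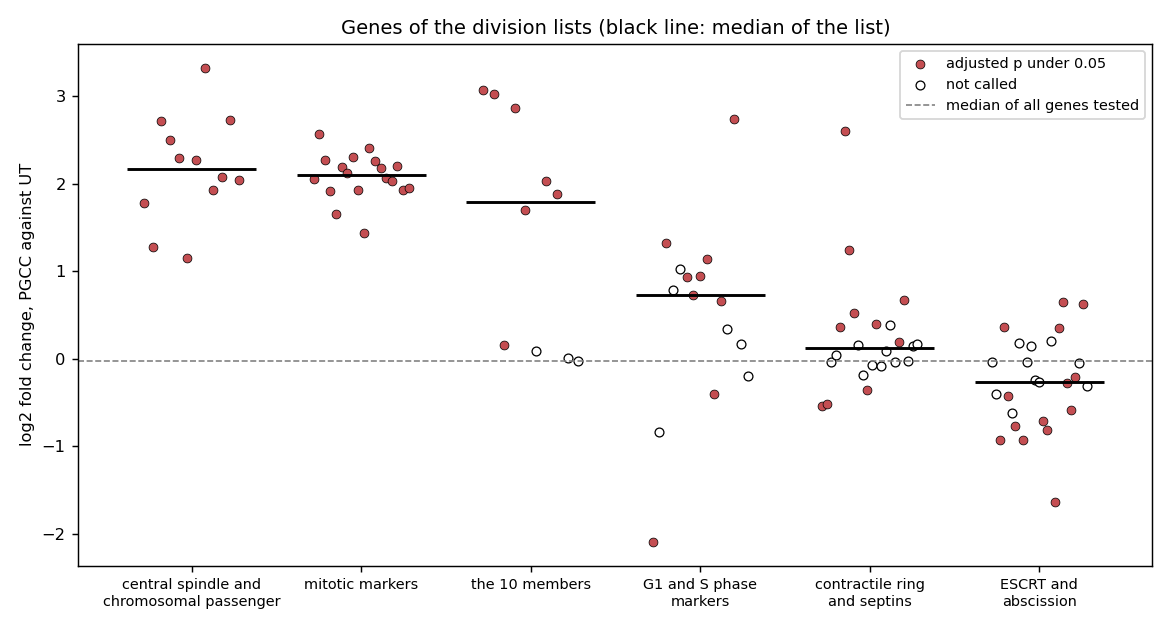
Log2 fold change of PGCC against UT (vertical axis) for the tested genes of 6 lists, filled where the adjusted p by edgeR was under 0.05, with a black line at each list's median and a dashed line at the median of all genes tested (-0.03). The central spindle list and the mitotic markers lie wholly above 1, the 10 members fall into 6 above 1 and 4 near 0, and the ESCRT list lies mostly below 0.

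Markers of mitosis moved with the members over 2-fold higher in PGCC, and not with RHOA, CHMP4B, PDCD6IP and TSG101. All 18 mitotic markers rose (edgeR), with a median log2 fold change of 2.10, led by the checkpoint kinase BUB1 (2.57, SE 0.28), the spindle protein DLGAP5 (2.41, SE 0.32) and the cyclin-dependent kinase CDK1 (2.31, SE 0.23). Their summed level was 346 to 980 CPM in UT and 2240 to 2820 CPM in PGCC, and their part in the members' differences was not tested. Of 15 markers of G1 and S phase 7 rose and 2 fell (60% called, beside 47.4% of all genes tested), with a median of 0.74. RRM2, a subunit of ribonucleotide reductase, rose by 2.74 (SE 0.29), CDC6, a replication licensing factor, by 1.32 (SE 0.34), and MCM5, part of the replicative helicase, by 1.14 (SE 0.27), or by 0.72 without replicates 4 and 5. Cyclin E1 (CCNE1) fell from 8.49 ± 4.89 to 1.97 ± 0.74 CPM (-2.09, SE 0.45), and MCM6 by -0.40 (SE 0.12), a call lost without replicate 2 (adjusted p = 0.0568) or 3 (0.0525). The number that fell was 1 without either of these and 4 without replicates 4 and 5. The same TTTGAA letters stood in the promoters of 10 of the 14 mitotic markers in the promoter table, 7 of 10 central spindle genes, 1 of 21 contractile ring genes, 1 of 18 ESCRT genes and 1 of 12 markers of G1 and S phase.

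To read each member beside the mitotic markers, the mean log2 CPM of the 18 markers in a library was subtracted from the member's own log2 CPM. The difference for CEP55 was -0.82 ± 0.13 in UT and 0.09 ± 0.11 in PGCC (SD, n = 6), with no overlap between the libraries, and it was 0.91 higher in PGCC (exact permutation p = 0.00216, the smallest possible). For ANLN it was -0.27 ± 0.53 in UT and 0.60 ± 0.32 in PGCC, 0.88 higher (exact permutation p = 0.00649), and for CIT it was -1.88 ± 0.38 and -1.04 ± 0.26, 0.84 higher (exact permutation p = 0.00433). All 3 were higher in 6 of 6 same-numbered pairs, although their libraries overlapped for ANLN and CIT. These members thus differed by more than the average mitotic marker.

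The distance of PRC1 to the markers was -0.51 ± 0.24 in UT and -0.51 ± 0.11 in PGCC (difference 0.01, exact permutation p = 0.952). That value averages opposite differences, since PGCC was lower in replicates 4 and 5 and higher in the other 4, and without replicates 4 and 5 the difference was 0.17 (exact permutation p = 0.0571). RACGAP1 and ECT2 rose by less than the markers, by -0.29 (from 0.40 ± 0.30 to 0.10 ± 0.10, exact permutation p = 0.0476) and -0.49 (from 1.32 ± 0.40 to 0.83 ± 0.17, exact permutation p = 0.0238) on this scale, and were lower in 6 of 6 pairs. For RACGAP1 the pair of replicate 5 was nearly level, at 0.0004 in UT and -0.0058 in PGCC. The exact p of RACGAP1 was above 0.05 without replicate 1, 2, 3 or 6 (0.111, 0.111, 0.143 and 0.111), and that of ECT2 without replicate 2, 3 or 6 (0.0635, 0.0635 and 0.0556). Without replicates 4 and 5 their differences were -0.42 and -0.62, with no overlap and the smallest exact p that 4 libraries against 4 allow, 0.0286. For RHOA, CHMP4B, PDCD6IP and TSG101 the differences on this scale were between -2.05 and -2.20. Their own fitted log2 fold changes lay between -0.02 and 0.16, so these values restate the rise of the markers. The exact p-values of these members add nothing to that rise. These 10 exact tests, two-sided over all divisions of the 12 libraries, are not adjusted and do not use the pairing by number. Over 64 sign changes of the same-numbered pairs the exact p, also unadjusted, was 0.969 for PRC1. For every other member it was 0.0312, the smallest possible. In the LCL-521 libraries the same differences were 0.86 for ANLN, 0.80 for CEP55, 0.58 for CIT, 0.04 for PRC1, -0.35 for RACGAP1 and -0.55 for ECT2.

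**Figure D5:**
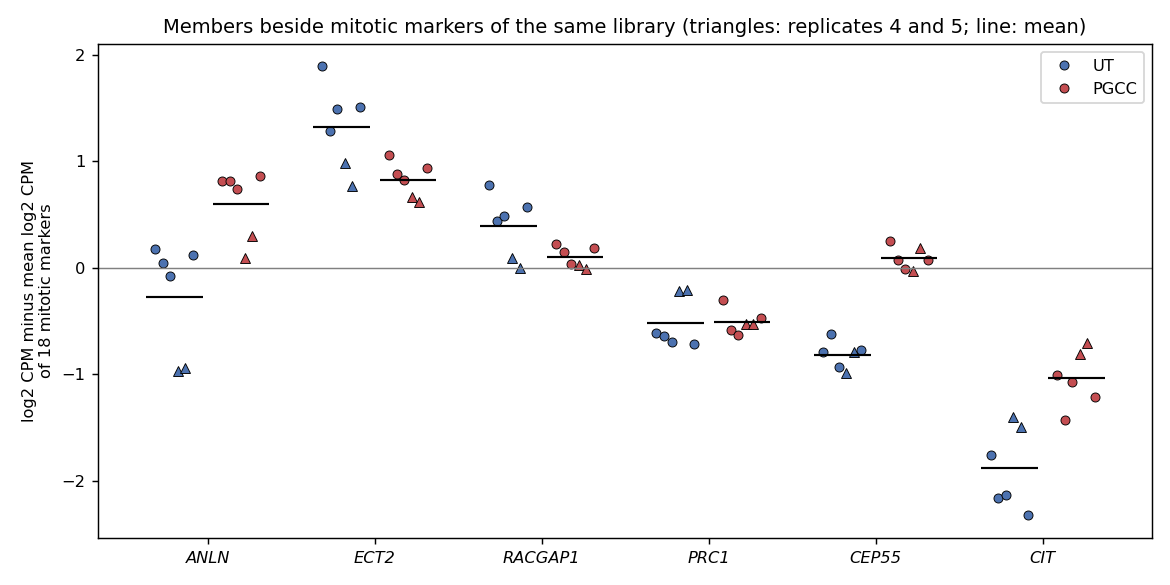
Log2 CPM of 6 members minus the mean log2 CPM of 18 mitotic markers in the same library (vertical axis), for the UT and PGCC libraries, with triangles for replicates 4 and 5 and a line at each mean. CEP55, ANLN and CIT sit higher in PGCC by 0.91, 0.88 and 0.84, PRC1 differs by 0.01, and ECT2 and RACGAP1 sit lower by values of -0.49 and -0.29.

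Replicates 4 and 5 were not alike in all members. In UT both lay above the other 4 libraries for PRC1, CIT, PDCD6IP and TSG101 and overlapped them for the other 6 members, and in UT_LCL they lay above for 7 of the 10. In PGCC they lay above for CIT and TSG101 and below for ANLN, at 135 and 165 CPM beside 187 to 218 CPM. The mean log2 difference between PGCC and UT in replicates 4 and 5 was 2.88 for ANLN, 2.70 for CEP55, 2.42 for CIT, 1.69 for RACGAP1, 1.49 for ECT2 and 1.42 for PRC1. In the other 4 replicates it was 3.18, 3.31, 3.35, 2.02, 1.82 and 2.61 in the same order of genes. Both subsets thus had the 6 members higher in PGCC, with PRC1 differing most between them.

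The genes whose pattern over the 24 libraries was most like each member's were found by the root mean square difference of centred log2 CPM over 14554 other genes. ANLN was nearest to MYBL2 (0.26) and DNAH5 (0.26), where the median over all genes was 1.61. ECT2 was nearest to ZWILCH (0.13) and CCNB1 (0.15), RACGAP1 to CCNB1 (0.14) and ARHGAP11A (0.14), and PRC1 to PRR11 (0.13) and TOP2A (0.18). CEP55 was nearest to APOBEC3B (0.20) and FAM64A (0.20), and CIT to CKAP2L (0.24) and KIF4A (0.28). For these members the median over all genes ran from 0.94 for ECT2 to 1.63 for CIT. The other 4 members had smaller medians over all genes, of 0.37 for RHOA, 0.39 for CHMP4B, 0.40 for PDCD6IP and 0.47 for TSG101. RHOA was nearest to TPD52 (0.055) and ST13 (0.056), CHMP4B to SEPTIN2 (0.062) and PIGT (0.069), PDCD6IP to SUN1 (0.073), and TSG101 to GOLGA5 (0.093) and RAD21 (0.11).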

How the data were processed

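RNA was sequenced from 24 samples of PPC1 cells, 6 in each of 4 conditions. The authors deposited raw read counts per gene in whole numbers. The submitters' processing notes name CASAVA, STAR, HTSeq, DESeq2 and the build hg19, and strand handling is not given in the sources used here. Groups and replicate numbers were taken from the sample labels, whose design text describes 6 independent experiments with all conditions harvested in parallel. Same-numbered libraries deviated together from their condition means (lowest correlation 0.171; 6 of 6 pairs above 0.1 in each comparison), so the numbers pair the libraries. R 4.3.3 with edgeR 4.0.16 was used: filterByExpr (minimum count 10, minimum total 15), TMM scaling, quasi-likelihood tests on the 12 libraries compared (24 for the interaction) without a block, and Benjamini-Hochberg adjustment over all genes tested at 0.05. Log2 CPM had a prior count of 2. Single values were tested by two-sided exact permutation over libraries and by sign changes of same-numbered pairs. Alternatives were DESeq2 1.42.0, other scalings and filters, the replicate block, gene length, and libraries left out. Scripts were tested on simulated counts. Libraries of a condition differed by more than sampling noise (chi-square per degree of freedom 4.69 to 110 over 60 pairs). Septins, listed under date-like symbols, were matched by gene ID. From each list the 3 largest called rises and falls were named, with the paralogs of RHOA and CHMP4B and the 2 most alike genes of each member. The members and lists were chosen with earlier results of these data known. Protein sequences were not used here, and 1 of the most alike genes is not reported here.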

Additional observations from a re-analysis of the deposited data

Results flagged for a closer look

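In 40 groups of 6 libraries (10 members in 4 conditions), the gap between an extreme library and its nearest neighbour was set against the range of the group, and values above 0.625 were marked. Chance marks about 1 in 20 such groups, or 2 of 40, and 2 were found. ECT2 in UT_LCL was highest in replicate 5, at 74.8 CPM beside 55.7 to 61.7 CPM in the other 5 libraries, a gap of 0.655 of the range. CHMP4B in UT was highest in replicate 1, at 146 CPM beside 135 to 139 CPM in the other 5, a gap of 0.666 of the range.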

How the results depend on the processing

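The 6 large differences (ANLN, ECT2, RACGAP1, PRC1, CEP55 and CIT) kept their direction and passed the threshold under all 17 alternatives in both population comparisons, with log2 fold changes in PGCC against UT from 2.97 to 3.19, 1.61 to 1.84, 1.79 to 2.03, 1.85 to 2.61, 2.86 to 3.31 and 2.74 to 3.37. The number of members called lay between 6 and 9 in both, and between 5529 and 8881 genes of all were called in PGCC against UT. Values near 0 changed sign. In PGCC against UT, RHOA was -0.018 with no filter on low counts, -0.0011 in a fit of all 24 libraries, -0.019 without replicates 4 and 5 and -0.020 without them with the replicate block, and from -0.015 to 0.030 with 1 replicate left out. TSG101 was 0.076 with library totals, 0.015 with at least 10 counts in every library, 0.030 with the replicate block, 0.060 with the block and a length correction, 0.0026 with the length correction alone, 0.21 without replicates 4 and 5, 0.22 without them with the block, and from -0.081 to 0.13 with 1 replicate left out. RHOB was 0.019 with library totals, 0.10 without replicates 4 and 5, 0.094 without them with the block, and from -0.19 to 0.023 with 1 replicate left out. In PGCC_LCL against UT_LCL, RHOA was 0.039 with library totals, 0.019 with at least 10 counts, 0.017 with the block and length correction, 0.018 with the length correction, and from -0.058 to 0.017 with 1 replicate left out. There TSG101 was 0.049 with library totals, 0.022 with at least 10 counts, 0.026 with the block, 0.057 with the block and length correction, 0.017 with the length correction, 0.25 without replicates 4 and 5 with or without the block, and from -0.11 to 0.096 with 1 replicate left out. Relative to the mitotic markers, PRC1 was -0.0069 without TOP2A and CCNA2 in the marker list, 0.17 without replicates 4 and 5, and from -0.052 to 0.073 with 1 replicate left out, ECT2 from -0.56 to -0.42, and RACGAP1 from -0.35 to -0.24. Genes called in UT_LCL against UT were 115 with the replicate block, 221 with the block and length correction and 3 with the block and without replicates 4 and 5. In PGCC_LCL against PGCC they were 6 by DESeq2, 234 with the block, 253 with the block and length correction, 129 with the block and without replicates 4 and 5, 0 in a fit of all 24 libraries, 0 without replicates 4 and 5, and from 0 to 1 with 1 replicate left out. The replicate block alone changed the call of no member, and 0 members were called under LCL-521 in any alternative. The cause of these changes was not tested. Every member had 51 counts or more in every library, and the spread between replicates includes counting error.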
